A study of Homo sapiens with 4 samples.

Results

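The TGF-beta branch of signalling was followed through 9 genes in ACHN cells after silencing of PRR11: the ligand genes TGFB1, TGFB2, TGFB3 and INHBA, the latent binding protein gene LTBP1, the receptor genes TGFBR1, TGFBR2 and TGFBR3, and the feedback gene SMAD7. They were chosen by gene symbol, and each matched a row among the 36359 genes counted. ACHN is an established human renal cell carcinoma line. Cells received siRNA by lipofection, either a negative control (siNC, 2 libraries) or siRNA against PRR11 (siPRR11, 2 libraries), and mRNA was sequenced to learn what lies downstream of PRR11. The labels give neither the time after transfection nor which siRNA duplex went into which library, and they do not say that the libraries of a group came from separate cultures, so p-values measure the spread between these samples only, which may be technical. Each group is 1 cell line, and in bulk RNA fewer cells making a transcript and less transcript per cell cannot be told apart.

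TGF-beta proteins are secreted as latent complexes, in which LTBP proteins tether the ligand to the matrix until integrins or proteases release it. Active ligand binds the type II receptor TGFBR2, which phosphorylates the type I receptor TGFBR1, and SMAD2 and SMAD3 then enter the nucleus with SMAD4. Activin A, a dimer of the INHBA product, feeds the same SMADs through its own receptors. In kidney epithelium the pathway is known for growth arrest, matrix production and epithelial to mesenchymal transition, and SMAD7 is induced by it and inhibits it.

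Libraries held between 59003839 and 92612749 counted reads. PRR11 itself had 41.3 and 40.4 CPM (read counts scaled to library size with TMM factors) in siNC and 15.3 and 14.0 in siPRR11, which is 35.9% of the control mean. Of 12 renal epithelial carcinoma markers, 10 stood at 1 CPM or more in every library, whereas CDH6 and CA9 were near 0. Summed endothelial markers had 0.345 to 0.416 CPM in siNC and 0.678 to 0.700 in siPRR11, with none of 6 at 1 CPM in every library. Among 7 fibroblast markers COL1A1 and THY1 reached 1 CPM in every library while LUM and DCN were near 0. Their summed level was 503.6 to 540.8 CPM in siNC and 556.7 to 567.2 in siPRR11. THY1 made up most of it, with 490.4 and 459.8 CPM in siNC and 469.8 and 479.8 in siPRR11. COL1A1 had 49.5 and 43.0 CPM in siNC and 96.2 and 76.0 in siPRR11. CD68 made up most of the leukocyte sum of 46.3 to 57.7 CPM in siNC and 55.6 to 61.2 in siPRR11, with PTPRC and CD3E at or near 0.

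INHBA and TGFBR1 were called lower after PRR11 silencing, and none of the 9 genes was called higher. The TGFBR1 call was lost in 5 of 12 alternative settings. INHBA, which encodes the activin A subunit, dropped to 58.7% of its control level, and TGFBR1, the type I receptor, to 77.9%. TGFB1, TGFB3, TGFBR2 and TGFBR3 had overlapping groups. TGFB2, SMAD7 and LTBP1 had groups that did not overlap, with adjusted p-values above 0.05. All 9 genes passed the low-count filter. The 2 genes called lower are 22.2% of the 9, beside 9.14% of the 21630 genes tested that were called lower, 7.61% called higher and 16.7% called in either direction (edgeR quasi-likelihood test, Benjamini-Hochberg adjusted p under 0.05). At an unadjusted p under 0.05, 3 of the 9 passed. Groups did not overlap for 5 of the 9, beside 58.4% of all genes tested, so non-overlap alone says little here. The median log2 fold change was -0.04 over the 9 genes and 0.00 over all genes tested. Higher genes made up 45.4% of all genes called by edgeR and 61.5% of those called by limma on log2(RPKM + 1), under which INHBA was the 1 member still called.

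**Figure D1:**
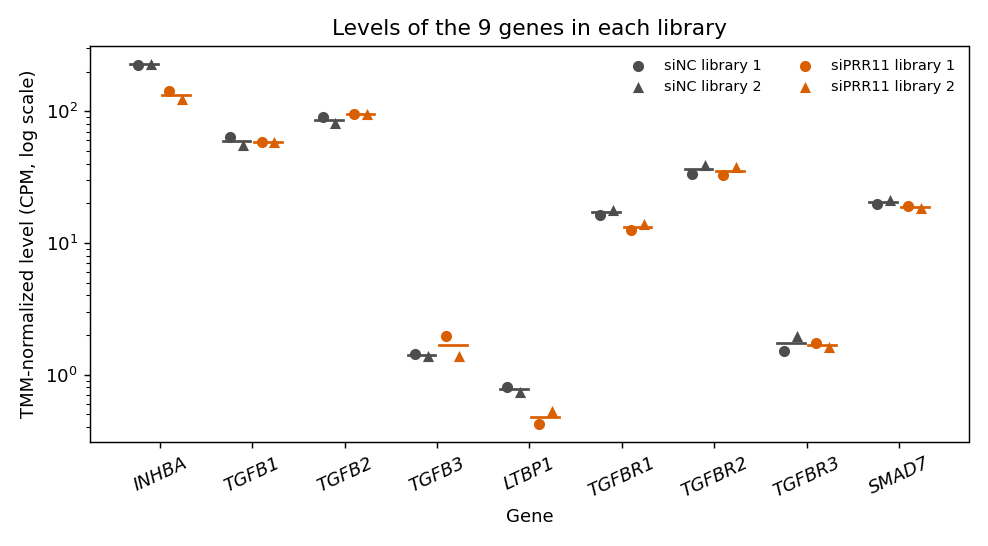
TMM-normalized level in CPM (log scale) of each of the 9 genes in the 2 siNC and 2 siPRR11 libraries, with points for libraries and horizontal lines for group means. INHBA, between 223.98 and 228.6 CPM in siNC, lies at 123.97 and 141.5 in siPRR11, while LTBP1, TGFB3 and TGFBR3 sit below 2 CPM in all libraries.

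**Figure D2:**
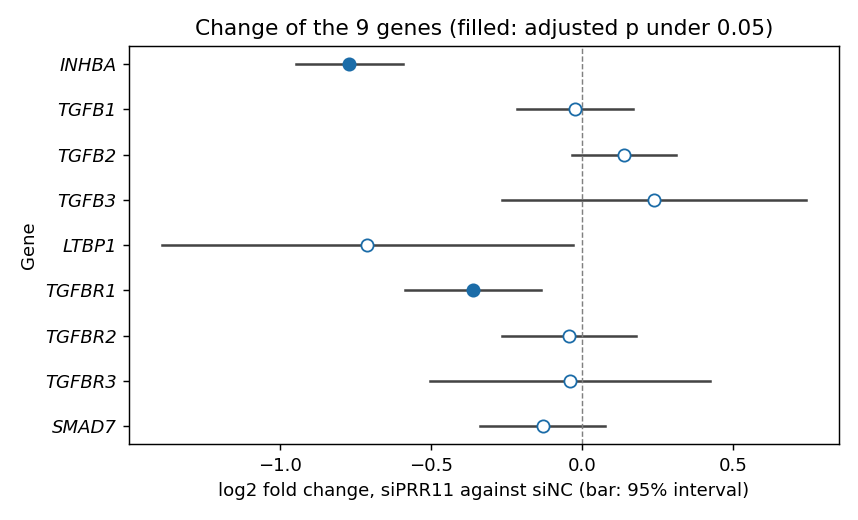
Log2 fold change of siPRR11 against siNC for the 9 genes, with bars for the 95% interval of the edgeR quasi-likelihood fit and filled points for an adjusted p under 0.05. INHBA (-0.77) and TGFBR1 (-0.36) are filled, and the low-count genes LTBP1, TGFB3 and TGFBR3 carry the widest intervals.

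INHBA was the most abundant of the 9 transcripts in control cells. The gene lies on the minus strand at chr7:41667168-41705834 (GRCh38) and none of its counted exonic bases overlapped another counted gene. The antisense neighbour INHBA-AS1 had 1.14 and 1.10 CPM in siNC and 1.24 and 1.01 in siPRR11. INHBA stood at 224.0 and 228.6 CPM in siNC and at 141.5 and 124.0 CPM in siPRR11, from 10602 or more reads per library. Both silenced libraries lay well below both controls. The group means were 226.3 ± 3.24 and 132.8 ± 12.4 CPM (SD, n = 2 each). The log2 fold change was -0.77 with an SE of 0.0808 and a 95% interval of -0.95 to -0.59 (edgeR quasi-likelihood test, adjusted p = 0.000118), a 1.70-fold lower level. Under 12 alternative settings the change stayed between -0.87 and -0.68, with adjusted p-values of at most 0.0169.

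The promoter of INHBA is shown because its transcript kept its call in every setting. RefSeq (GRCh38.p14) places the window of 250 bases before and 50 after the start at chr7:41703041-41703340 on the minus strand, inside the span in which the authors counted the gene. Capitals mark matches to the motifs searched on both strands, namely the TATA box (TATAAA), the CCAAT box, the GC box (GGGCGG), the AP-1 site (TGACTCA), the cAMP response element (TGACGTCA) and the short SMAD element (CAGAC).
INHBA: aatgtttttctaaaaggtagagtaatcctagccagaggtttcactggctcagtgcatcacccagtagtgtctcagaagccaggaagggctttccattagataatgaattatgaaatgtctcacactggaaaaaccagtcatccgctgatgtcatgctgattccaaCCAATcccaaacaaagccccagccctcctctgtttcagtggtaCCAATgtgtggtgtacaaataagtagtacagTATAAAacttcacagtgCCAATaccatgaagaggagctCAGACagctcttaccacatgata
The window held TATAAA 11 bases before the start, CCAAT at 85 and 42 bases before it and once after it, and CAGAC once after it, with no overlap between matches. Among 35116 RefSeq windows of this length, TATAAA occurred in 11.5%, CCAAT in 34.6%, CAGAC in 45.3%, GGGCGG in 45.0%, TGACTCA in 4.95% and TGACGTCA in 1.85%. GC content was 43.3%. A match in letters is a description and not a bound site.

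TGFB1 and TGFB2 were both strongly transcribed and neither passed the test. TGFB1 encodes the best studied isoform, TGF-beta 1, and lies on the minus strand at chr19:41301587-41353911. It had 64.1 and 55.0 CPM in siNC and 58.5 and 58.7 in siPRR11, so both silenced libraries fell between the controls. Its log2 fold change was -0.02 with a 95% interval of -0.22 to 0.17 (adjusted p = 0.894). Exons of HNRNPUL1 on the other strand cover 6.64% of its counted bases.

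TGFB2 encodes TGF-beta 2, the isoform that depends most on the co-receptor betaglycan. It lies on the plus strand at chr1:218346235-218444619. Levels were 90.6 and 82.0 CPM in siNC and 94.6 and 95.6 in siPRR11. Both silenced libraries lay above both controls, and the gap between the nearest libraries of the groups was smaller than the gap between the controls. The log2 fold change was 0.14 with an SE of 0.0781 and a 95% interval of -0.03 to 0.31 (adjusted p = 0.258). Its antisense neighbour TGFB2-AS1 drew nearly as many reads, with 80.3 and 81.3 CPM in siNC and 87.3 and 88.7 in siPRR11. Per length it stood far higher, at 141.9 and 143.4 RPKM in siNC and 159.6 and 161.6 in siPRR11. TGFB2 had 17.3 and 15.6 RPKM in siNC and 18.7 and 18.8 in siPRR11. The log2 fold change of TGFB2-AS1 was 0.12 (adjusted p = 0.285). TGFB2-OT1, a transcript from the same strand, lies with all of its 1371 bases inside counted TGFB2 exons, which is 26.6% of them. Its log2 fold change was 0.24 (adjusted p = 0.145). The libraries were stranded, but the use of strand in counting is not given in the sources used here, and reads from TGFB2 and its neighbours may be split between them.

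The TGFB2 start is shown because the antisense gene crosses it. The RefSeq window (GRCh38.p14) is chr1:218345086-218345385 on the plus strand, and its 211 capitals mark bases in the counted exon of TGFB2-AS1.
TGFB2: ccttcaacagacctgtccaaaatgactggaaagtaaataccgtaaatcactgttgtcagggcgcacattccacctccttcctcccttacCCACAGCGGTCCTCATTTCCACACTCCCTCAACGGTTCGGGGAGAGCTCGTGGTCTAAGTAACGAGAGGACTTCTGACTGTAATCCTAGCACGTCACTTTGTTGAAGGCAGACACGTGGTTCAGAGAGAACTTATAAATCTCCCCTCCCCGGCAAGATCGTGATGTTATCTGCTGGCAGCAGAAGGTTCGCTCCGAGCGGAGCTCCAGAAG
This window holds TATAAA 29 bases before the start and CAGAC 243 and 53 bases before it. The authors' annotation begins counting TGFB2 at base 218346235, which is 899 bases past the first base of the gene in GENCODE 44. Of 557 exonic bases of TGFB2-AS1, 129 (23.2%) lie in GENCODE 44 exons of TGFB2 and 0 in the exons counted for it.

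TGFB3 encodes TGF-beta 3 and lies on the minus strand at chr14:75958099-75982991. It was scarce, with 1.44 and 1.38 CPM in siNC and 1.95 and 1.38 in siPRR11, from 80 to 184 reads per library. Its groups overlapped, and the log2 fold change of 0.24 had a 95% interval of -0.26 to 0.74 (adjusted p = 0.534).

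Per transcript length, the balance among the ligands moved away from INHBA. In the deposited RPKM, INHBA stood at 26.5 and 27.1 in siNC and 17.4 and 15.2 in siPRR11, while TGFB1 ranged from 16.7 to 19.5 and TGFB2 from 15.6 to 18.8 over the 4 libraries. INHBA made up 41.7% and 45.3% of the summed RPKM of the 4 ligand genes in siNC and 31.6% and 28.8% in siPRR11. Its ratio to TGFB1 was 1.36 and 1.62 in siNC and 0.943 and 0.824 in siPRR11, and its ratio to TGFB2 was 1.53 and 1.73 against 0.928 and 0.805. By RPKM, INHBA thus led both isoforms in each control library and trailed both in each silenced library. In CPM, which are not divided by length, INHBA stayed above both in siPRR11. It had 141.5 and 124.0 CPM there, beside 94.6 and 95.6 for TGFB2 and 58.5 and 58.7 for TGFB1. The reversed order therefore depends on the exonic lengths used for RPKM. The TGFB2 level may also be affected by reads split with its neighbours TGFB2-OT1 and TGFB2-AS1. Among the TGF-beta isoforms alone, TGFB2 took 46.7% and 48.0% in siNC and 49.9% and 50.2% in siPRR11, TGFB1 nearly all of the rest, and TGFB3 about 1%.

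**Figure D3:**
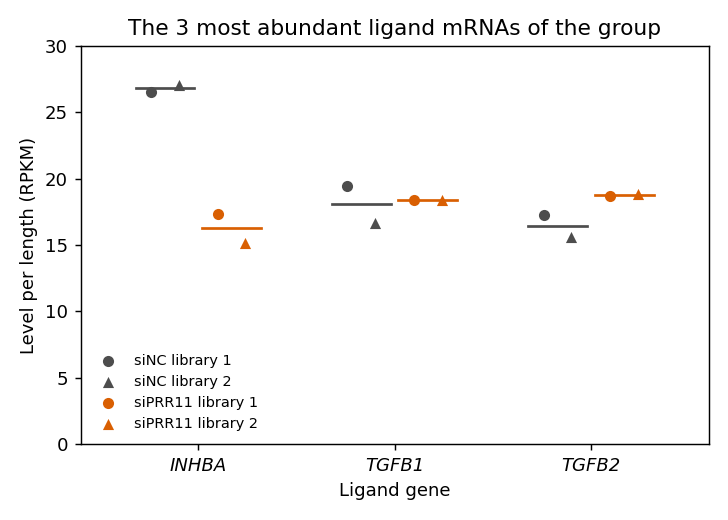
Deposited RPKM of INHBA, TGFB1 and TGFB2 in the 2 siNC and 2 siPRR11 libraries, with points for libraries and lines for group means. INHBA lies above both isoforms in siNC (26.5 and 27.1) and below both in siPRR11 (17.4 and 15.2).

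LTBP1, whose product carries latent TGF-beta to the matrix, was close to silent. The gene lies on the plus strand at chr2:32946972-33399509. It had 66 and 43 reads in siNC and 40 and 45 in siPRR11, or 0.808 and 0.742 CPM against 0.424 and 0.526. The silenced libraries were the lower ones. The log2 fold change was -0.71 with an SE of 0.311 and a 95% interval of -1.39 to -0.03, and the test was not passed (adjusted p = 0.148). In siNC, LTBP1 stood at 0.108 and 0.0994 RPKM, beside 5.95 and 7.63 for its relative LTBP2 and 3.69 and 3.88 for LTBP4. A further relative, LTBP3, had a mean of 6.57 RPKM in siNC. Whether any of these relatives carries latent TGF-beta in these cells was not tested.

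Among the receptors, TGFBR1 changed and TGFBR2 and TGFBR3 did not pass the test. TGFBR1 encodes the type I receptor kinase and lies on the plus strand at chr9:99104038-99154192. Its levels were 16.2 and 17.9 CPM in siNC and 12.6 and 13.9 in siPRR11. Both silenced libraries were below both controls. The means were 17.0 ± 1.18 and 13.2 ± 0.880 CPM (SD, n = 2 each), and the log2 fold change was -0.36 with an SE of 0.103 and a 95% interval of -0.59 to -0.13 (edgeR quasi-likelihood test, adjusted p = 0.0335). This call was lost in 5 of 12 alternative settings. They were both limma fits on RPKM (adjusted p = 0.174 and 0.183) and the fits without siNC library 2 (0.0850), without siPRR11 library 1 (0.295) and without siPRR11 library 2 (0.0638), while the direction stayed negative in all 12.

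The TGFBR1 start is GC-rich, unlike that of INHBA, and is shown for that contrast. RefSeq lists 8 windows for the gene, and the first is chr9:99104863-99105162 (GRCh38.p14, plus strand), with the same motifs in capitals.
TGFBR1: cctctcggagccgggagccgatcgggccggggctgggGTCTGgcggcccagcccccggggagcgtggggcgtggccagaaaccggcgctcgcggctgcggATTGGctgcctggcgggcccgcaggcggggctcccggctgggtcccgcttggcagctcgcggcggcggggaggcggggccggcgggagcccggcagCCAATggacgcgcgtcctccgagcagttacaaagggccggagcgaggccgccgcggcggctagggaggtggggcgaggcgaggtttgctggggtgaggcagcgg
GC content was 78.7%, and the window held CCAAT 150 and 54 bases before the start, CAGAC 213 bases before it and no TATAAA.

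TGFBR2, the type II receptor that binds ligand first, lies on the plus strand at chr3:30606502-30694142. It had 33.5 and 39.2 CPM in siNC and 33.0 and 37.5 in siPRR11. Its groups overlapped, with a log2 fold change of -0.04 and a 95% interval of -0.26 to 0.18 (adjusted p = 0.819). By deposited RPKM, TGFBR2 exceeded TGFBR1 3.01- and 3.20-fold in siNC and 3.80- and 3.94-fold in siPRR11, so this ratio was higher in both silenced libraries. TGFBR3 encodes betaglycan, the co-receptor that presents TGF-beta 2, and lies on the minus strand at chr1:91680343-91906335. It was scarce, with 1.52 and 1.97 CPM in siNC and 1.75 and 1.61 in siPRR11, and its log2 fold change of -0.04 had a 95% interval of -0.50 to 0.42 (adjusted p = 0.929).

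SMAD7, the inhibitory SMAD that TGF-beta induces, served as the readout within the group. The gene lies on the minus strand at chr18:48919853-48950711. It stood at 19.6 and 21.2 CPM in siNC and 19.0 and 18.3 in siPRR11. Both silenced libraries were below both controls, though the nearest libraries of the groups lay closer together than the controls did. The log2 fold change was -0.13 with an SE of 0.0940 and a 95% interval of -0.34 to 0.08 (adjusted p = 0.392).

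The order of the 9 genes by deposited RPKM in siNC was INHBA, TGFB1, TGFB2, TGFBR2, SMAD7, TGFBR1, TGFB3, TGFBR3 and LTBP1. TGFB1 and TGFB2 overlapped in range there and did not differ beyond their spread. In siPRR11 the order opened with TGFB2, TGFB1 and INHBA and was otherwise the same, with no overlap between neighbours. Mean RPKM ran from 26.8 for INHBA to 0.104 for LTBP1 in siNC and from 18.8 for TGFB2 to 0.0659 for LTBP1 in siPRR11.

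Genes with a pattern like that of INHBA and TGFBR1 were sought by the distance between log2 CPM profiles, centred on each gene's mean, over 4 libraries and 14192 genes. The nearest to INHBA were ZHX1 (distance 0.0458), RP11-728F11.3 (0.0462) and PIK3CD (0.0469), whose log2 fold changes were -0.73, -0.81 and -0.74, and 25 genes lay within 0.1. RPL4 (0.0149), HEIH (0.0154) and KCNMA1-AS1 (0.0211) were nearest to TGFBR1, for which 240 genes lay within 0.1. With 4 libraries such likeness says little beyond the size of the change.

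In the wider pathway, 27 of 108 other genes tested were called (25%, beside 16.7% of all genes), of which 8 were higher and 19 lower, with a median log2 fold change of -0.10. Over all genes tested, 9.14% were called lower and 7.61% higher. Among other ligands of the superfamily, 2 were higher and 1 lower of 16 tested (18.8% called). BMP1, a protease grouped with the BMPs by name, rose (0.41, adjusted p = 0.00599), and AMH, the hormone that makes Müllerian ducts regress, fell (-0.61, adjusted p = 0.0395). INHBB, the other activin subunit gene, had no more than 0.138 CPM in any library.

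Of 12 other receptors and co-receptors, 3 were lower and 1 higher (33.3% called, beside 16.7% of all genes). BMPR1A (-0.57, adjusted p = 0.00195) and ACVR1 (-0.41, adjusted p = 0.0197), which are type I receptors like TGFBR1, fell, as did CD109, a co-receptor that restrains TGF-beta signalling (-0.43, adjusted p = 0.00576). ACVRL1, a type I receptor best known in endothelium, rose from 1.48 and 0.776 CPM to 4.32 and 2.49 (1.56, adjusted p = 0.00493). The further activin receptor genes ACVR1B, ACVR2A, ACVR2B and ACVR1C did not pass the test. Log2 fold changes were -0.20 for ACVR1B (adjusted p = 0.178) and -0.08 for ACVR2A (adjusted p = 0.707). They were -0.40 for ACVR2B (adjusted p = 0.124, unadjusted 0.0321) and -0.80 for ACVR1C (adjusted p = 0.159, unadjusted 0.0471). ACVR1B was called lower without siNC library 1 (adjusted p = 0.0438).

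Among 12 SMADs and nuclear partners, SMAD6, the inhibitory SMAD of the BMP branch, was the 1 gene called (-0.33, adjusted p = 0.0414). This is 8.33% of the list, beside 16.7% of all genes. The SMADs downstream of TGFBR1 did not pass, with -0.25 for SMAD2 (adjusted p = 0.0908), -0.22 for SMAD3 (adjusted p = 0.0724) and -0.10 for SMAD4 (adjusted p = 0.493). Without siNC library 1, SMAD2 and SMAD3 were called lower (adjusted p = 0.0085 and 0.0119), and SMAD3 also with no low-count filter (adjusted p = 0.0321). Of 17 inhibitors and feedback genes, 3 were lower and 1 higher (23.5% called). SKI and TGIF1, which repress SMAD target genes, fell (-0.60 and -0.52, adjusted p = 0.000829 and 0.000669), as did PMEPA1, a TGF-beta-induced inhibitor of the pathway (-0.49, adjusted p = 0.00158). NOG, a BMP antagonist, rose (1.04, adjusted p = 0.00279). SKIL, another induced repressor, had overlapping groups (-0.17, adjusted p = 0.333), and FST, which binds activin, had 0 reads in both siNC libraries and 4 and 2 in siPRR11 and was not tested.

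Latent complex and activation genes were called in 7 of 20 cases, 6 lower and 1 higher (35%, beside 16.7% of all genes). FURIN, the convertase that cleaves TGF-beta precursors, fell (-0.53, adjusted p = 0.00435). The integrin subunit genes ITGB3 (-1.04, adjusted p = 0.000805) and ITGB5 (-0.48, adjusted p = 0.0173) fell, while ITGB8 rose (1.14, adjusted p = 0.0011). An overlapping gene on the same strand covers 51.6% of the counted bases of ITGB3.

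Induced target genes were called in 8 of 24 cases, 3 higher and 5 lower (33.3%, beside 16.7% of all genes). PDGFB, a growth factor gene (-0.43, adjusted p = 0.0064), and ZEB2, a repressor of epithelial genes (-0.32, adjusted p = 0.0244), were lower. CTGF, a matricellular protein gene, rose from 115.6 and 94.6 CPM to 141.3 and 138.2 (0.41, adjusted p = 0.0108). COL1A1, a fibrillar collagen gene that is also a fibroblast marker, rose (0.90, adjusted p = 0.000329), with COL1A2 at 0.245 CPM or less in every library. CDKN1A, which encodes the cell cycle inhibitor p21, rose from 45.5 and 44.2 CPM to 97.5 and 90.5 (1.07, adjusted p = 9.37e-06). In the BMP branch, 1 of 8 targets was called (12.5%), which was SMAD6. The part that the fibroblast, leukocyte and endothelial marker sums play in these values was not tested.

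**Figure D4:**
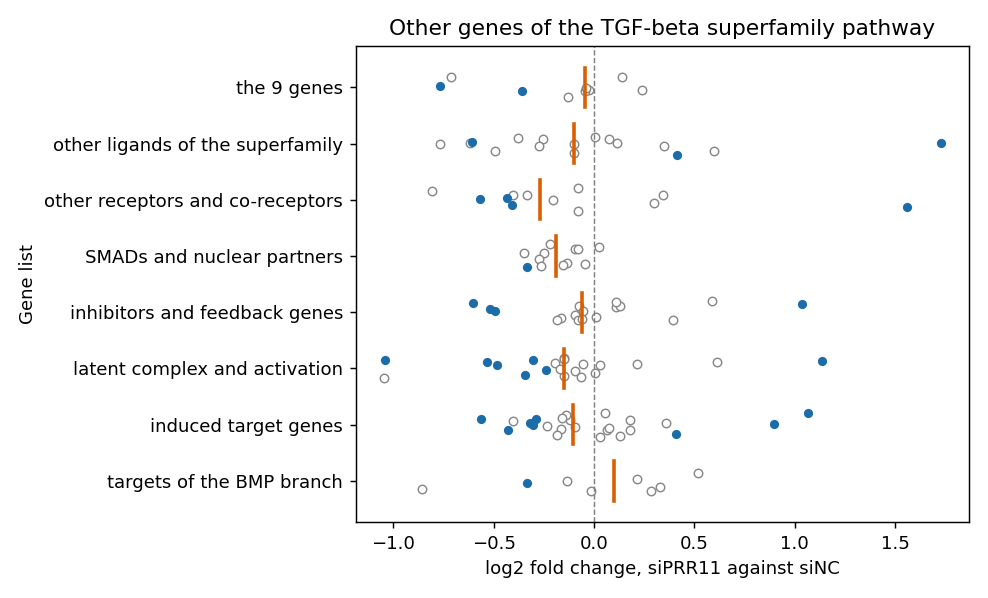
Log2 fold change of siPRR11 against siNC for the 9 genes and for each list of other pathway genes, 1 point per tested gene, filled for an adjusted p under 0.05, with a bar at the list median. Lower calls outnumber higher ones among activation genes (6 and 1), while induced targets hold 3 higher and 5 lower calls. Over all genes tested, 9.14% were called lower and 7.61% higher.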

How the data were processed

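RNA from 2 siNC and 2 siPRR11 libraries of ACHN cells was analysed. According to the study's methods and the submitters' processing notes, reads of stranded mRNA libraries were trimmed (Trimmomatic 0.36), aligned to GRCh38 and counted per gene with featureCounts (Subread 1.5.1). The authors deposited raw read counts, with no normalization, and RPKM values made from those counts. Neither the annotation release nor the strand setting of the counter is given in the sources used here.

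Counts were tested with edgeR 4.0.16 (quasi-likelihood, TMM, filterByExpr, condition only) in R 4.3.3 over 21630 genes, with Benjamini-Hochberg adjustment over those genes and a threshold of 0.05. The procedure was tested on simulated data. CPM were scaled by TMM factors, between 0.983 and 1.018, and RPKM served for levels between genes. As alternatives, DESeq2 1.42.0, the exact test of edgeR, RLE size factors, no low-count filter, at least 10 counts in every library, a replicate block, limma 3.58.1 with a variance trend on log2(RPKM + 1) and log2(RPKM + 0.1), and leaving out each library were tried.

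The 9 genes and the pathway lists were chosen with earlier results of these data known. Of each list, up to 3 genes per direction were named, the called genes of largest change whose groups did not overlap and whose average log2 CPM was 1 or more, beside SMAD2, SMAD3, SMAD4, CTGF, SKIL, PMEPA1, ACVR1B, ACVR2A, INHBB and FST. A gene that this rule also names is not reported here. ACVR2B, ACVR1C, LTBP2, LTBP3 and LTBP4, the neighbouring transcripts, the motifs and the printed promoters were chosen after values were seen. All 9 genes matched a RefSeq promoter.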

Additional observations from a re-analysis of the deposited data

How the results depend on the processing

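INHBA kept its call in all 12 settings and TGFBR1 in 7, and TGFB2, SMAD7 and LTBP1 kept their direction and stayed above the threshold in all 12. Under limma on log2(RPKM + 1) and log2(RPKM + 0.1), 1775 and 1878 genes were called in place of 3622, with 61.5% and 61.3% of them higher in place of 45.4%. In these fits 1 of the 9 genes was called, and 9 and 10 other pathway genes in place of 27. TGFB1 turned to 0.0275 and 0.0290 on the log2 scale and TGFBR2 to 0.00407 and 0.00471, and TGFBR3 to 0.00305 with the smaller pseudocount. The replicate numbers are not described as a pairing in the labels. Same-numbered libraries deviated together with a correlation of 0.48 over genes with an average log2 CPM of 1 or more. With a replicate block, 6988 genes and 43 other pathway genes were called, and the same 2 of the 9 genes passed. Adjusted p was 0.000194 for TGFBR1, with calls gained by SMAD2 (0.00393), SMAD3 (0.00248) and ACVR1B (0.0338). The block leaves 1 residual degree of freedom per gene, so these p-values lean on the spread shared across genes.

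With each library left out, a group of 1 library is assumed to vary like the other group. The number of genes called ran from 2172 without siPRR11 library 1 to 4590 without siNC library 1, with 2393 without siPRR11 library 2, and members called from 1 to 2. Log2 fold changes ranged from -0.13 to 0.0893 for TGFB1, -0.0330 to 0.47 for TGFB3, -0.16 to 0.0689 for TGFBR2, -0.23 to 0.15 for TGFBR3, -0.18 to 0.31 for INHBB and -0.33 to 0.00647 for SKIL. Among the named pathway genes called, 8 kept their call in every setting (BMP1, CDKN1A, COL1A1, ITGB3, NOG, PMEPA1, SKI and TGIF1). Leaving out a library ended the call of ACVR1, AMH, CD109, PDGFB, SMAD6 or ZEB2, AMH was also lost in DESeq2, and the other losses were in limma. SMAD2, SMAD3, ACVR1B and SKIL (adjusted p = 0.0116) gained a call without siNC library 1, and SMAD3 with no low-count filter. The cause was not tested. Ratios and shares within a library do not depend on its scaling. LTBP1, TGFB3 and TGFBR3 had fewer than 200 reads per library, and their 95% intervals are the widest of the 9.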
